A study of Mus musculus with 10 samples.

Results

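The enzymes of serine synthesis and of the folate cycle are 9 genes among the 55573 gene IDs of the count table: Phgdh, Psat1, Psph, Shmt1, Shmt2, Mthfd1, Mthfd2, Mthfd1l and Aldh1l2. They were chosen by name, as enzymes of one metabolic route, with earlier results of these data known, and each matched 1 gene ID. All 9 were expressed well enough to be tested. RNA was sequenced from cortical projection neurons that had been sorted by flow cytometry for the fluorescent reporter EYFP from mouse pups on postnatal day 3, 1 preparation per pup. The 5 Ctrl pups were NexCre/+ with wild-type Cdk7 (Cdk7+/+), and the 5 Cdk7_KO pups were NexCre/+ with both alleles floxed (Cdk7lox/lox). Both genotypes carried NexCre/+ and R26EYFP/+. NexCre places Cre recombinase under Neurod6, a gene active in young excitatory neurons of the cortex, so deletion and reporter depend on the same driver. The comparison asks how RNA levels in these neurons differ when Cdk7, a kinase of the general transcription factor TFIIH and an activator of cell cycle kinases, is deleted.

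Cells make serine from the glycolytic intermediate 3-phosphoglycerate through the successive actions of PHGDH, PSAT1 and PSPH. Serine hydroxymethyltransferases then split serine into glycine and a carbon unit that is carried by folate, SHMT1 in the cytosol and SHMT2 in mitochondria. MTHFD2, MTHFD1L, MTHFD1 and ALDH1L2 oxidise, reduce or release these units for the synthesis of purines and thymidylate and for NADPH. In the brain the synthesis of serine is known mainly from radial glia and astrocytes, which supply neurons with it, and several of these genes are known targets of the stress-responsive transcription factor ATF4.

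Total counts lay between 23497621 and 31233466 per library, and 28204 IDs had at least 1 count in some library. Cdk7 RNA was 15.7 ± 4.0 CPM (counts scaled to each library's total) in Ctrl against 5.16 ± 1.3 in Cdk7_KO (SD, n = 5), with no overlap. The 10 projection neuron markers were present in every group, with summed levels of 1606 to 2393 CPM in Ctrl and 1894 to 2513 CPM in Cdk7_KO. Xist and Y-linked genes marked 2 Ctrl libraries (replicates 1 and 3) and 3 Cdk7_KO libraries (replicates 1, 2 and 3) as male, and the 3 Ctrl (4, 5 and 6) and 2 Cdk7_KO (4 and 5) libraries left as female. Sex therefore follows the numbering, so that it cannot be told apart from a difference between preparations with low and high numbers.

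The upstream sequence is shown for 3 of the genes whose RNA differed most between the genotypes, and for Shmt2, whose RNA differed little. The sequences are RefSeq's for GRCm38.p6, taken from the 250 bases before a RefSeq start of the gene, 5′ to 3′ on the gene's own strand. Bases that GENCODE M21 annotates as exon of the gene were left out. Capitals mark the letters CCAAT or, for the opposite strand, ATTGG. All 4 genes lie on the minus strand, with the stretches of Phgdh at chr3:98339991-98340219, Psat1 at chr19:15925060-15925309, Mthfd2 at chr6:83317607-83317854 and Shmt2 at chr10:127522445-127522694. For Psat1 and Mthfd2 the stretch lies inside the gene's GENCODE M21 span, where other annotated transcripts start further upstream.
Phgdh: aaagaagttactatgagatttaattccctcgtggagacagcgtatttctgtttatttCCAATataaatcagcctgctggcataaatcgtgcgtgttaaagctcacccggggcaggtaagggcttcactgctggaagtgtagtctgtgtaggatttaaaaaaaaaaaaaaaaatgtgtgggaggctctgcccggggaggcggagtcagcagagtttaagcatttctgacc
Psat1: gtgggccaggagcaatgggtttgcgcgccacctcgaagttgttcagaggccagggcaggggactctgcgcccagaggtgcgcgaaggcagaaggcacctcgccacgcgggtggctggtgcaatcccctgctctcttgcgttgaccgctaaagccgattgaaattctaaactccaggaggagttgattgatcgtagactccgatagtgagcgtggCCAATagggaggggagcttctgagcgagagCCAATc
Mthfd2: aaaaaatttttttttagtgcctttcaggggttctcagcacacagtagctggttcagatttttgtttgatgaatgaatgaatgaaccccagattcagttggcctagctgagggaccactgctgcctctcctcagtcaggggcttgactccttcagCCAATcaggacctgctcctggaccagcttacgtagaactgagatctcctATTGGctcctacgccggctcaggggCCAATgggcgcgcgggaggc
Shmt2: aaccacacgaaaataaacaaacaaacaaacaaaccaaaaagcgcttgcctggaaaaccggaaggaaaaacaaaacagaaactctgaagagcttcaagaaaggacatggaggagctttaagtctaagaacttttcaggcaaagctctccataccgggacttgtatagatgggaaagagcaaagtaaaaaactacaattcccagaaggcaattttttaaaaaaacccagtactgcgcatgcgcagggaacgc

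RefSeq windows of 300 bases, from 250 before to 50 after a start, were found for 8 of the 9 genes, with 2 windows for Psat1. They were searched on both strands for 3 motifs, and no match overlapped another: TGATGNAA, the element bound by ATF4 together with C/EBP proteins, CACGTG, an E-box, and CCAAT, the box bound by NF-Y. TGATGNAA was in the window of 0 of the 8 genes, against 3.97% of all 32851 mouse windows, and CACGTG in 0 of 8 against 7.15%. CCAAT was in the windows of 6 genes, against 37.4% of all windows. In the Mthfd2 sequence CCAAT letters began 96, 47 and 22 bases before the start, and in the Psat1 sequence 36 and 6 bases before it. The Phgdh window held them 193 and 23 bases before the start, and the second of these reaches into annotated exon. The Shmt2 and Mthfd1l windows held none of the 3 motifs. These are matches of letters in a short window, and elements elsewhere in the genes were not searched.

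None of the 9 enzymes passed edgeR's quasi-likelihood test after correction over the whole table, and the 3 genes of serine synthesis and Mthfd2 had the lowest unadjusted p, each with a lower mean in Cdk7_KO. Of the 9 genes, 7 had a negative and 2 a positive log2 fold change (Cdk7_KO over Ctrl), with a median of -0.33 against 0.013 over all 15578 genes tested. edgeR called 0 of 9 at an adjusted p under 0.05, and it called 0.0% of all genes. Cdk7, the deleted gene, was not called either (log2 fold change -1.54, edgeR adjusted p = 0.161). At an unadjusted p under 0.05, edgeR had 4 of the 9 lower and 0 higher, against 10.5% of all genes lower and 4.9% higher. DESeq2 called 2 of 9 lower, Psat1 and Mthfd2, and 0 higher, against 3.02% of all genes called lower and 0.226% called higher. limma's voom called 0 of all genes, and its smallest adjusted p among the 9 was 0.154. In 1 of the 9 genes, Mthfd2, every Cdk7_KO library lay below every Ctrl library, a pattern seen in 2.41% of all genes, and 0 of 9 were higher without overlap, against 0.61% of all genes.

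**Figure D1:**
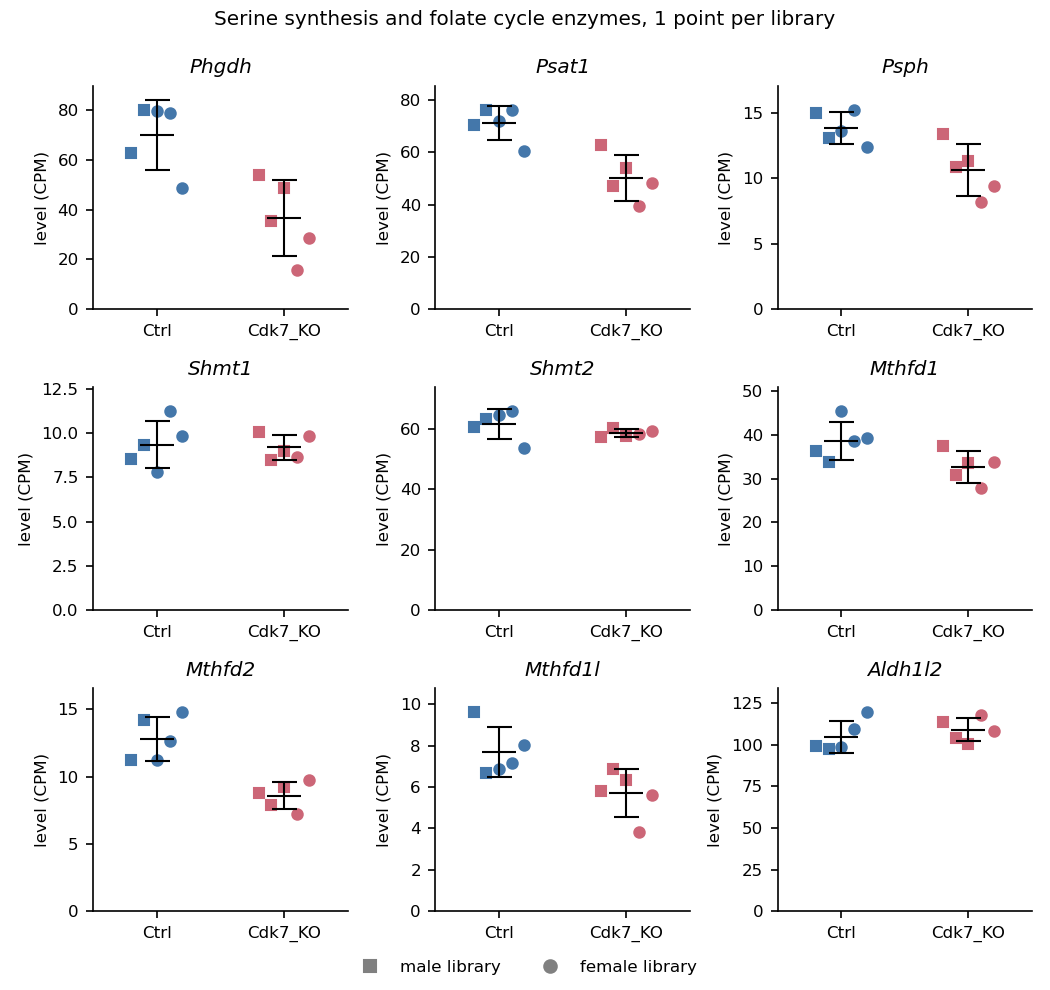
Level of each enzyme gene in CPM (y axis, from 0) in the 5 Ctrl and 5 Cdk7_KO libraries, with squares for male and circles for female libraries. Long bars are group means and error bars are SD. Mthfd2 is the gene whose groups do not overlap (11.2 to 14.8 CPM in Ctrl, 7.23 to 9.75 CPM in Cdk7_KO), and Phgdh has the widest spread, from 15.8 to 80.1 CPM.

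Phgdh encodes 3-phosphoglycerate dehydrogenase, the first enzyme of serine synthesis (ENSMUSG00000053398, chr3:98313170-98339990, GRCm38). In Ctrl replicates 1, 3, 4, 5 and 6 its level was 62.7, 80.1, 79.8, 78.7 and 48.5 CPM. In Cdk7_KO replicates 1 to 5 it was 53.8, 35.6, 48.7, 15.8 and 28.7 CPM. Ctrl replicate 6 lay below 2 Cdk7_KO libraries, replicates 1 and 3, so the groups overlapped. The means were 70.0 ± 14.03 CPM against 36.5 ± 15.3 in Cdk7_KO (SD, n = 5), and Cdk7_KO had 52.2% of the Ctrl level. The log2 fold change of Phgdh, from edgeR's own scaling of the libraries (TMM), was the most negative of the 9 enzymes. It was -0.89 (SE 0.26, 95% interval -1.45 to -0.33), and 7.61% of all genes tested had a lower one. The difference did not pass correction in edgeR (adjusted p = 0.174) or in DESeq2 (adjusted p = 0.0816).

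Psat1 encodes phosphoserine aminotransferase, the second enzyme (ENSMUSG00000024640, chr19:15904678-15947337). Its levels in Ctrl were 70.6, 76.1, 72.1, 76.3 and 60.4 CPM in the same order of replicates. In Cdk7_KO they were 63.0, 47.0, 54.2, 39.4 and 48.3 CPM. A single pair of libraries made the groups overlap, with Cdk7_KO replicate 1 just above Ctrl replicate 6. Cdk7_KO had 70.8% of the Ctrl mean in CPM. The edgeR log2 fold change, with TMM scaling, was -0.45 (SE 0.10, 95% interval -0.67 to -0.22). Psat1 was called by DESeq2 (adjusted p = 0.0133) and not by edgeR (adjusted p = 0.161) or voom (adjusted p = 0.154).

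Psph encodes phosphoserine phosphatase, which releases serine in the last step (ENSMUSG00000029446, chr5:129765558-129787449). Ctrl levels were 15.0, 13.1, 13.6, 15.2 and 12.4 CPM, and Cdk7_KO levels 13.4, 10.8, 11.3, 8.20 and 9.38 CPM. Cdk7_KO replicate 1 again stood among the Ctrl libraries, and the other 4 lay below all of them. The log2 fold change of -0.33 (SE 0.14, 95% interval -0.63 to -0.033) had an edgeR adjusted p of 0.275 and a DESeq2 adjusted p of 0.215. Of the exon bases of Psph, 10.4% are shared with the strongly expressed Cct6a on the opposite strand (352 CPM in Ctrl, 383 CPM in Cdk7_KO). The strand setting of the counting is not given in the sources used here, so the part of Cct6a reads in the Psph counts is unknown.

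The serine hydroxymethyltransferases, which pass the carbon unit of serine to folate, were the pair of genes with the log2 fold changes nearest to 0. Shmt2, the mitochondrial enzyme (ENSMUSG00000025403, chr10:127517123-127522444), had 60.4, 63.1, 64.5, 65.8 and 53.6 CPM in Ctrl and 57.3, 60.3, 57.5, 58.2 and 59.1 CPM in Cdk7_KO. The 5 Cdk7_KO libraries lay inside the Ctrl range. Its log2 fold change was -0.017 (95% interval -0.15 to 0.12; edgeR adjusted p = 0.930). Shmt1, the cytosolic enzyme (ENSMUSG00000020534, chr11:60788104-60811718), had 8.51, 9.35, 7.79, 11.2 and 9.81 CPM in Ctrl and 10.1, 8.48, 8.96, 8.66 and 9.83 CPM in Cdk7_KO. These values also overlapped throughout, with a log2 fold change of 0.029 (95% interval -0.27 to 0.33; edgeR adjusted p = 0.946). Its sign was negative with scaling to library totals (-0.023), which moved the median of all genes from 0.013 to -0.040. Shmt1 shares 4.74% of its exon bases with Smcr8 on the opposite strand (31.5 CPM in Ctrl), and the part of Smcr8 reads in its counts is likewise unknown. Per length, in CPM per kilobase of exon (RPKM), the ratio of Shmt2 to Shmt1 was 8.35 ± 1.38 in Ctrl and 7.99 ± 0.69 in Cdk7_KO (SD, n = 5).

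Mthfd2 encodes the mitochondrial methylenetetrahydrofolate dehydrogenase and cyclohydrolase that oxidises the carbon unit released by SHMT2 (ENSMUSG00000005667, chr6:83305691-83325908). Its levels were 11.2, 14.2, 11.3, 12.7 and 14.8 CPM in Ctrl. In Cdk7_KO they were 8.80, 7.93, 9.24, 7.23 and 9.75 CPM. The highest Cdk7_KO library, replicate 5, lay below the lowest Ctrl library, replicate 1. With means of 12.8 ± 1.64 and 8.59 ± 1.01 CPM (SD, n = 5), Cdk7_KO had 67.0% of the Ctrl level. The edgeR log2 fold change, with TMM scaling, was -0.53 (SE 0.14, 95% interval -0.83 to -0.23). Mthfd2 was called by DESeq2 (adjusted p = 0.0184) and not by edgeR (adjusted p = 0.161) or voom (adjusted p = 0.154). Its paralog Mthfd2l had 15.8 CPM in Ctrl and 17.2 CPM in Cdk7_KO, a log2 fold change of 0.18 (SE 0.17). Per length, the ratio of Mthfd2 to Mthfd2l was 1.63 ± 0.46 in Ctrl and 0.977 ± 0.22 in Cdk7_KO (SD, n = 5), with overlapping groups.

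Mthfd1l encodes the mitochondrial synthetase that releases the unit as formate (ENSMUSG00000040675, chr10:3973118-4167081). It had 91 to 226 counts per library, the lowest range of the 9. Ctrl levels were 9.62, 6.69, 6.86, 7.18 and 8.03 CPM, and Cdk7_KO levels 5.82, 6.88, 6.36, 3.83 and 5.60 CPM. The groups met at 1 library, Cdk7_KO replicate 2, with a log2 fold change of -0.38 (SE 0.18, 95% interval -0.78 to 0.011; edgeR adjusted p = 0.339).

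Mthfd1 encodes the trifunctional cytosolic enzyme that takes up formate again (ENSMUSG00000021048, chr12:76255298-76319803). It had 36.3, 33.8, 45.4, 38.6 and 39.2 CPM in Ctrl and 37.5, 30.8, 33.5, 27.8 and 33.7 CPM in Cdk7_KO. Of the Cdk7_KO libraries, 1 lay inside the Ctrl range and 4 below it, for a log2 fold change of -0.19 (SE 0.095, 95% interval -0.40 to 0.016; edgeR adjusted p = 0.363). Aldh1l2 encodes the mitochondrial formyltetrahydrofolate dehydrogenase, which burns the unit to carbon dioxide and yields NADPH (ENSMUSG00000020256, chr10:83487450-83534140). Its levels were 99.3, 97.1, 98.7, 109.1 and 119.5 CPM in Ctrl and 113.7, 104.0, 100.6, 117.5 and 108.1 CPM in Cdk7_KO. These ranges lay almost on top of each other, with a log2 fold change of 0.11 (SE 0.083, 95% interval -0.073 to 0.29; edgeR adjusted p = 0.574). Aldh1l2 shares 14.1% of its exon bases with D10Wsu102e on the opposite strand (74.9 CPM in Ctrl).

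Per length, Phgdh was the most abundant of the 9 transcripts in Ctrl, at 28.1 ± 5.64 RPKM (SD, n = 5). It was followed by Shmt2 (19.8 ± 1.55 RPKM), Psat1 (16.7 ± 1.53 RPKM) and Aldh1l2 (13.96 ± 1.27 RPKM). Mthfd1 stood at 8.70 ± 0.97 RPKM, and Mthfd2, Psph, Shmt1 and Mthfd1l between 3.68 and 1.73 RPKM. Within Ctrl each gene's range over the libraries overlapped that of its neighbour in this order, except on both sides of Mthfd1. In Cdk7_KO the order at the top was Shmt2 (18.8 ± 0.39 RPKM), Phgdh (14.7 ± 6.16 RPKM), Aldh1l2 (14.5 ± 0.92 RPKM) and Psat1 (11.8 ± 2.07 RPKM), and the lower 5 kept their Ctrl order. Phgdh ran from 6.34 to 21.6 RPKM in Cdk7_KO, a range that held all Shmt2, Aldh1l2 and Psat1 values, so that its place among these 4 was not separated.

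Levels of the serine synthesis genes varied over the libraries with markers of several other cell types, among them radial glia, the stem cells of the developing cortex. Of 14 radial glia genes, among them Sox2, Nes, Vim and Fabp7, all 14 had a lower level in Cdk7_KO at an unadjusted edgeR p under 0.05 (median log2 fold change -0.91), and DESeq2 called 6 of them. Over all genes, 10.5% were lower by the edgeR measure and 3.02% were called lower by DESeq2. None of the 14 had a mean under 1 CPM, and the lowest single value was 0.463 CPM, for Hes1 in a Cdk7_KO library. Their summed level was 2512, 2855, 2911, 2632 and 1799 CPM in Ctrl replicates 1, 3, 4, 5 and 6, and 1963, 1367, 1736, 754.9 and 1155 CPM in Cdk7_KO replicates 1 to 5. The 5 Cdk7_KO libraries stood in the same order for this sum as for Phgdh. In Ctrl, replicate 6 was lowest in the sum, in Phgdh, in Psat1 and in Psph. Mthfd2 was at its highest in that library. In bulk RNA, fewer cells of a type and less RNA per cell cannot be told apart.

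**Figure D2:**
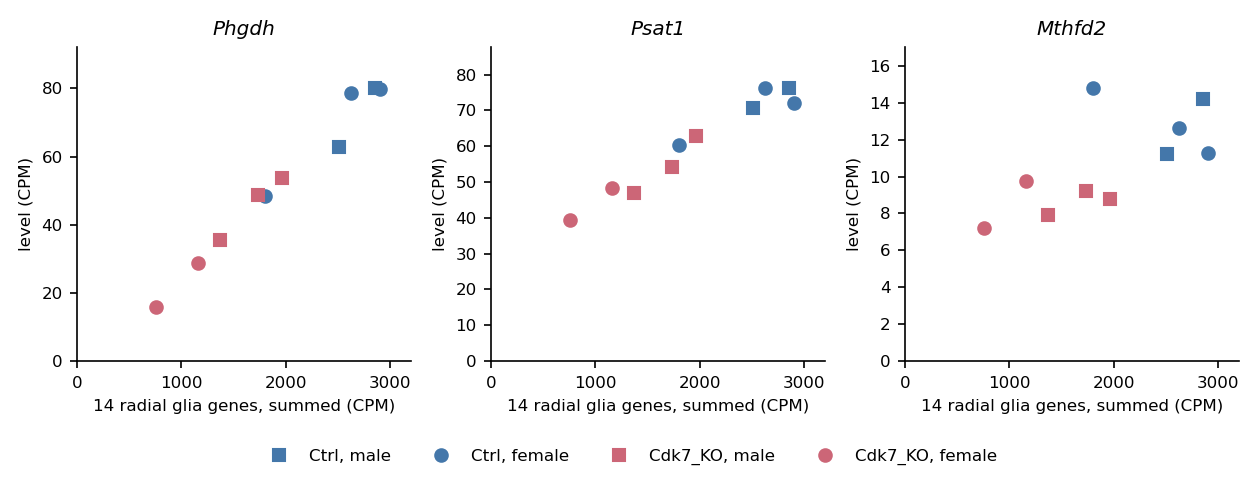
Level of Phgdh, Psat1 and Mthfd2 in CPM (y axes) against the summed level of 14 radial glia genes in CPM (x axes), 1 point per library, blue for Ctrl and red for Cdk7_KO, squares male and circles female. For Phgdh and Psat1 the libraries of both genotypes lie along one rising band, from Cdk7_KO replicate 4 (754.9 CPM on the x axis) upward, while for Mthfd2 the 5 Ctrl libraries lie above the 5 Cdk7_KO libraries, also where their sums meet (Ctrl replicate 6 at 1799 CPM, Cdk7_KO replicate 1 at 1963 CPM).

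Other marker lists differed in how many of their genes were lower, to be read against the 10.5% of all genes that were lower by this measure. Of 14 astrocyte genes 13 were tested and 11 were lower at an unadjusted edgeR p under 0.05, with summed levels of 790.0 to 1996 CPM in Ctrl and 214.8 to 963.5 CPM in Cdk7_KO, and Gjb6 had a mean under 1 CPM. Of 22 proliferation genes 17 were lower, with sums of 584.2 to 745.1 CPM in Ctrl and 416.9 to 631.2 CPM in Cdk7_KO. By the same measure, for microglia 4 of 12 were lower (164.3 to 491.5 CPM against 83.3 to 259.9 CPM), for vessels 14 of 14 (209.4 to 1345 CPM against 54.6 to 298.2 CPM), for the oligodendrocyte lineage 9 of 12 tested (364.6 to 1005 CPM against 216.1 to 606.9 CPM), for interneurons 1 of 10 (88.1 to 401.9 CPM against 24.7 to 275.8 CPM) and for red blood cells 5 of 5 (82.0 to 199.8 CPM against 34.7 to 89.4 CPM). No marker of these lists was at 0 in all libraries. By sign alone, log2 fold changes were negative for 13 of 13 astrocyte genes tested (median -1.13) and 21 of 22 proliferation genes (-0.69). So were those of 12 of 12 microglia genes (-0.79), 14 of 14 vessel genes (-1.62) and 12 of 12 oligodendrocyte lineage genes tested (-0.84). The same held for 10 of 10 interneuron genes (-0.86) and 5 of 5 red blood cell genes (-1.23). Projection neuron markers went the other way, with 9 of 10 log2 fold changes positive, 3 of 10 higher at an unadjusted edgeR p under 0.05 and a median of 0.27. Of all genes, 4.9% were higher at that threshold.

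Within the genotypes the likeness was measured as Pearson's r of log2 CPM over the 10 libraries after each genotype's mean was subtracted, as a description without a test. Each enzyme was compared with 12588 genes, so the highest r values below were picked as the extremes of many. All genes of a library share its depth, sex and cell makeup. The 5 genes most like Phgdh were Bcan (r = 0.996), Fabp7 (0.989), Gng12 (0.988), Itgb5 (0.984) and Gldc (0.978). Bcan encodes brevican, a proteoglycan of the brain's matrix, and Gldc the decarboxylase of the glycine cleavage system. For Psat1 they were Ckap2 (r = 0.972), Itgav (0.962), Kcnj10 (0.960), Glul (0.956) and Vwa5a (0.951), of which Kcnj10 and Glul encode a potassium channel and glutamine synthetase, both well known from astrocytes. For Mthfd2 they were Fzd9 (r = 0.949), Aebp1 (0.929), Dlgap1 (0.914), Fam207a (0.873) and Slitrk5 (0.870), with edgeR log2 fold changes of -1.23 for Aebp1 and between -0.24 and 0.098 for the other 4.

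The median r with the 14 radial glia genes was 0.86 for Phgdh, 0.80 for Psat1 and 0.76 for Psph. It was 0.44 for Mthfd1 and 0.45 for Mthfd1l, 0.050 for Mthfd2, -0.049 for Shmt2, -0.065 for Shmt1 and -0.58 for Aldh1l2. Phgdh had its highest median r with the astrocyte genes (0.91), and those with proliferation (0.83), interneuron (0.78) and microglia genes (0.69) were also positive. For Psat1 the median r with microglia genes was 0.74. For Mthfd2 it was 0.48 with microglia, 0.36 with interneuron and 0.29 with oligodendrocyte lineage genes. Among the enzymes themselves r was 0.90 for Phgdh with Psat1, 0.81 for Phgdh with Psph and 0.84 for Psat1 with Psph, against 0.11 for Phgdh with Mthfd2. Cdk7_KO replicate 4 had the lowest sum of radial glia genes. Over the 9 libraries without it the median r with the radial glia genes was 0.70 for Phgdh, 0.66 for Psat1 and 0.60 for Psph. It was then 0.18 for Mthfd1, -0.18 for Mthfd1l and -0.40 for Mthfd2.

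**Figure D3:**
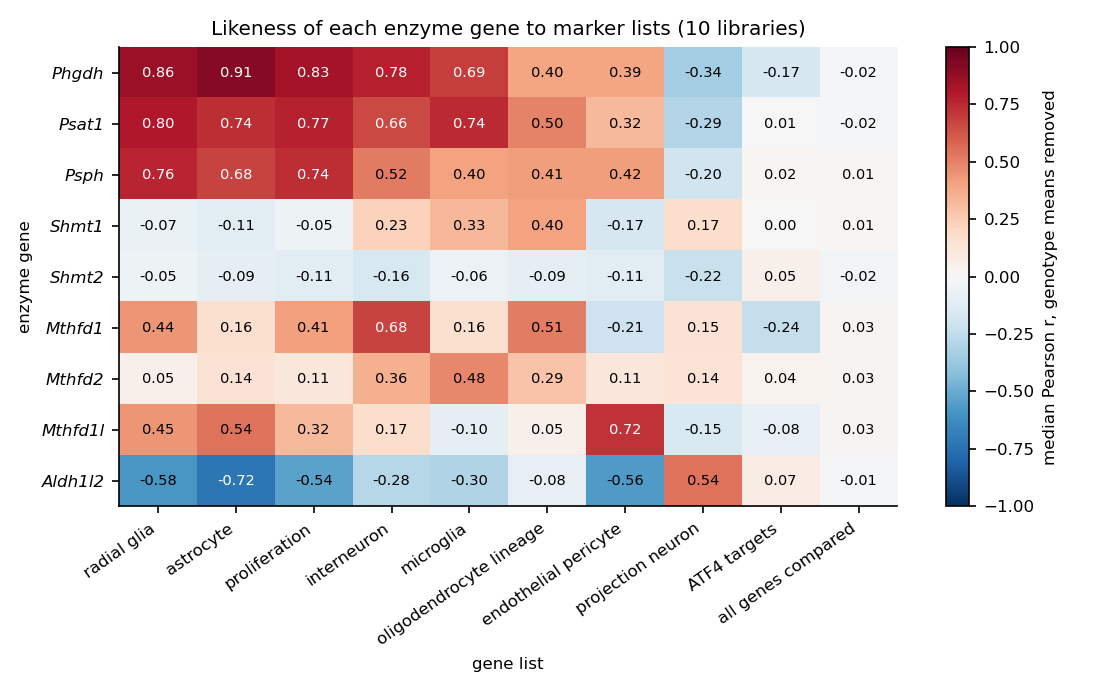
Median Pearson r (colour and printed value) between each enzyme gene (rows) and the genes of marker lists (columns) over 10 libraries with genotype means removed. The 3 serine synthesis genes have values of 0.68 to 0.91 with radial glia, astrocyte and proliferation genes. Mthfd2 has 0.05 to 0.14 with these lists, and its highest value is 0.48, with microglia genes. The column for all genes compared lies near 0.

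The genotype difference was then fitted in edgeR with a library's radial glia score, the mean log2 CPM of the 14 genes, beside genotype. With the score, the log2 fold change was 0.030 for Phgdh (SE 0.12), -0.13 for Psat1 (SE 0.099) and -0.014 for Psph (SE 0.16). For Mthfd2 it was -0.52 (SE 0.21, edgeR adjusted p = 1.0), almost the value without the score. In this fit 1 of the 9 genes, Mthfd2, was lower at an unadjusted p under 0.05, against 0.905% of all genes. With the proliferation score the values were 0.067 for Phgdh, -0.11 for Psat1, 0.0062 for Psph and -0.49 for Mthfd2. With an index of the astrocyte, microglia, vessel and oligodendrocyte lists (4 lists) they were -0.072, -0.14, -0.076 and -0.39, and 0 of the 9 genes were lower at an unadjusted p under 0.05, against 0.969% of all genes. With the proliferation score it was 1 of 9, Mthfd2, against 0.738%. With these covariates the share of all genes at that threshold in either direction was 1.95% (index), 2.04% (radial glia) and 1.54% (proliferation), against 15.4% without them, so few genes of any kind had a low p there. The index did not overlap between the genotypes (lowest Ctrl 0.21, highest Cdk7_KO 0.12), and the radial glia score overlapped slightly (lowest Ctrl 5.68, highest Cdk7_KO 5.82), so each of these fits also takes up genotype itself. Cdk7, which the alleles delete, likewise had an edgeR adjusted p of 1.0 with the radial glia score, at a log2 fold change of -1.50. Whether a difference in the share of other cells accounts for the levels of the serine synthesis genes was not tested.

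**Figure D4:**
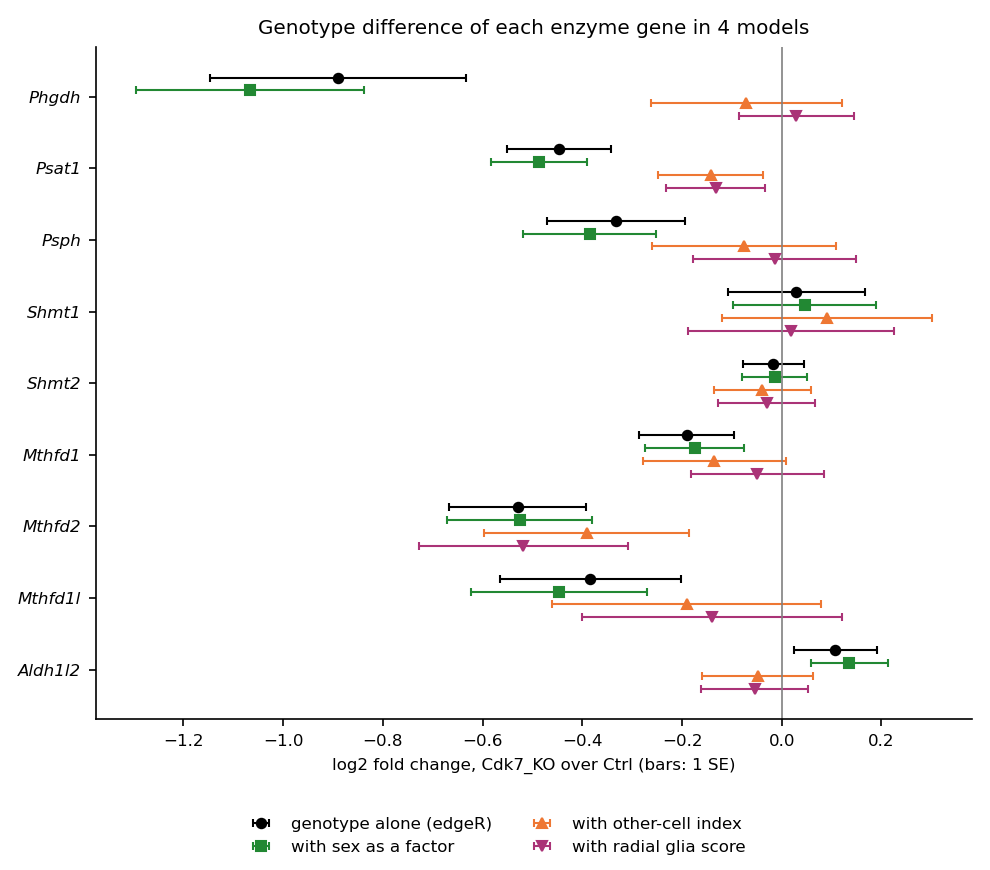
edgeR log2 fold change, Cdk7_KO over Ctrl (x axis, bars 1 SE), of each enzyme gene (y axis) with genotype alone (black), with sex (green), with the index of 4 other cell types (orange) and with the radial glia score (purple). Phgdh moves from -0.89 to 0.030 and Psph from -0.33 to -0.014 with the radial glia score. With the index they are at -0.072 and -0.076. Mthfd2 is at -0.53 with genotype alone, -0.52 with the radial glia score and -0.39 with the index.

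The sets of libraries by sex gave the same direction for the 4 lower genes. Phgdh had a log2 fold change of -0.62 in the 5 male libraries (71.4 against 46.0 CPM) and -1.54 in the 5 female libraries (69.0 against 22.2 CPM). Mthfd2 had -0.54 and -0.51, Psat1 -0.41 and -0.57, and Psph -0.23 and -0.55. In the test of the difference itself, edgeR's sex by genotype term, 0 of the 9 genes passed, as did 0.0% of all genes, and DESeq2 also called 0. Of the 9, 1 had an unadjusted p under 0.05, against 7.34% of all genes: Phgdh, with a term of 0.93 (male minus female, SE 0.37, edgeR adjusted p = 0.665). With sex as a factor beside genotype, edgeR called 2 of the 9 lower, Phgdh (log2 fold change -1.07, adjusted p = 0.0245) and Psat1 (-0.49, adjusted p = 0.0187), against 4.4% of all genes called lower, and Mthfd2 had an adjusted p of 0.0594.

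The wider serine and glycine genes had 19 of 20 members tested, 13 with a negative and 6 with a positive log2 fold change (median -0.16). edgeR called 0 of them, and at an unadjusted p under 0.05 it had 5 lower and 0 higher, against 10.5% and 4.9% of all genes. DESeq2 called 3 lower, against 3.02% of all genes. Those 3 were Slc6a9, the glycine transporter GLYT1, with 25.0 ± 3.95 CPM in Ctrl and 15.9 ± 2.93 CPM in Cdk7_KO (log2 fold change -0.60, DESeq2 adjusted p = 0.00948), the neutral amino acid transporter gene Slc1a4 and Gldc. Slc1a4, which moves serine across the membrane, had 177.8 ± 29.7 CPM in Ctrl and 123.3 ± 15.6 CPM in Cdk7_KO without overlap (-0.48, DESeq2 adjusted p = 0.0133). Gldc had 24.5 ± 5.31 and 12.9 ± 4.69 CPM (-0.88, DESeq2 adjusted p = 0.0123), with overlap.

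Among other folate genes 18 of 21 were tested, 15 with a negative and 3 with a positive log2 fold change (median -0.17). edgeR called 0, with 4 lower and 0 higher at an unadjusted p under 0.05, against 10.5% and 4.9% of all genes. DESeq2 called 1 lower, against 3.02% of all genes. Sardh, sarcosine dehydrogenase, was the DESeq2 call, with 8.02 ± 3.07 CPM in Ctrl and 3.38 ± 1.57 CPM in Cdk7_KO (-1.20, DESeq2 adjusted p = 0.0403). Tyms, thymidylate synthase of DNA synthesis, had 12.04 ± 1.43 and 9.22 ± 0.33 CPM without overlap (-0.33, edgeR adjusted p = 0.218). Aldh1l1, the cytosolic relative of Aldh1l2 and a marker of astrocytes, had 60.0 ± 16.1 and 27.3 ± 16.03 CPM (-1.09, edgeR adjusted p = 0.225). Its mitochondrial relative Aldh1l2, described above, had a log2 fold change of 0.11.

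The methionine cycle and purine synthesis use the carbon units. Of 6 methionine cycle genes tested, 4 had a negative and 2 a positive log2 fold change (median -0.013). edgeR and DESeq2 called 0, and 0 had an unadjusted edgeR p under 0.05. Over all genes, DESeq2 called 3.02% lower and 0.226% higher. Mat2b, Mtap and Ahcyl1 had the smallest p, with log2 fold changes of 0.13, -0.18 and -0.047. Of 13 genes of purine synthesis, 5 were negative and 8 positive (median 0.046), and edgeR and DESeq2 called 0. At an unadjusted p under 0.05 edgeR had 0 lower and 1 higher, against 10.5% and 4.9% of all genes. That gene was Adss, adenylosuccinate synthase, with 131.6 ± 9.57 CPM in Ctrl and 143.3 ± 3.25 CPM in Cdk7_KO (0.17, edgeR adjusted p = 0.244), followed by Prps2 (-0.24) and Adsl (-0.16).

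Other known ATF4 targets, in a list that also holds Atf4 itself, showed no common direction. Of 34 tested of 37, 19 had a negative and 15 a positive log2 fold change (median -0.0019), and edgeR called 0. At an unadjusted p under 0.05 edgeR had 4 lower and 3 higher, against 10.5% and 4.9% of all genes. DESeq2 called 1 lower, against 3.02% of all genes. Slc7a11, the cystine transporter, was that call, with 14.5 ± 3.21 CPM in Ctrl and 6.74 ± 3.47 CPM in Cdk7_KO (-1.06, DESeq2 adjusted p = 0.0365). Pycr1, an enzyme of proline synthesis, had 25.6 ± 3.13 and 30.3 ± 3.03 CPM (0.30, edgeR adjusted p = 0.238), and the stress gene Ddit4 191.2 ± 6.73 and 216.4 ± 28.4 CPM (0.23, edgeR adjusted p = 0.240). Asns, asparagine synthetase and a classical ATF4 target, had 60.0 ± 7.54 and 60.4 ± 6.59 CPM. Atf4 itself varied widely between libraries, with 169.2 ± 56.3 and 166.9 ± 68.7 CPM and a log2 fold change of 0.025 (SE 0.27).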

How the data were processed

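RNA was measured in sorted cortical neurons of 5 Ctrl and 5 Cdk7_KO pups, 1 library each. The authors deposited 1 table of raw counts per gene, whole numbers that were not normalized. STAR, Salmon and GRCm38 are named per the submitters' processing notes. Their versions, the counter and its strand setting: not given in the sources used here. The kit was directional, per the labels. Of 55573 gene IDs, 55480 matched GENCODE M21, which gave coordinates and exon lengths. For 117 symbols with more than 1 ID, the one with most counts stood for the symbol. No column was left without a sample (0 columns).

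The test was edgeR 4.0.16 (R 4.3.3), with filterByExpr by group (minimum count 10), TMM and a quasi-likelihood fit of genotype alone. p-values were adjusted by Benjamini-Hochberg over 15578 genes, and 0.05 was the threshold. Intervals are 95% intervals. CPM used library totals, and RPKM the merged exon length. Counting error weighs most on Mthfd1l, which had 91 counts in its lowest library. Alternatives were DESeq2 1.42.0 (10945 adjusted p-values left missing), limma 3.58.1 (voom), RLE, library totals, other filters, a robust fit, leaving out each library, a replicate block, sex, an index of other cell types and 1 surrogate variable (sva 3.50.0). The fit was tested on simulated data. The genes named are the 9 enzymes and Cdk7, up to 3 genes with the smallest edgeR p of each pathway list (mean of at least 1 CPM), and the 5 genes most like each of the 3 enzymes with the smallest p. Asns, Atf4, Mthfd2l and marker genes given as examples were added after their values were seen. Members and lists were chosen with earlier results of these data known.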

Additional observations from a re-analysis of the deposited data

How the results depend on the processing

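Across 25 alternatives the log2 fold changes of Psat1 (-0.57 to -0.11), Mthfd2 (-0.58 to -0.39), Mthfd1 and Mthfd1l kept their sign. edgeR called 0 of all genes. DESeq2 called 561, of which 2 were among the 9 enzymes, no filter called 1, the replicate block 5, sex as a factor 732 (2 of the 9), 1 surrogate variable 1, and leaving out 1 library 0 to 5, with 5 without Cdk7_KO replicate 1, Cdk7 among them. Same-numbered libraries of the genotypes had r from -0.18 to 0.47. Ctrl replicates 3 and 5 were most like the Cdk7_KO library of their own number, and replicates 1 and 4 were not. Whether the numbers pair the libraries was thus not settled, and the replicate block called 0 of the 9. Cdk7 was called by DESeq2 (-1.541), without a filter (-1.538), with sex (-1.432) and with 1 surrogate variable (-1.669), and its log2 fold change was -1.676 to -1.436 with 1 library left out. The count of enzymes lower at an unadjusted p under 0.05 (4) was 3 to 6 with 1 library left out, 0 with the index of other cell types, 1 with the radial glia score and 1 with the proliferation score, while the share of all genes under 0.05 went from 15.4% to 1.95%, 2.04% and 1.54%. Signs reversed for Shmt1 with library totals (-0.023), 1 surrogate variable (-0.006) and 1 library left out (-0.034 to 0.098), and for Shmt2 in female libraries (0.034) and with 1 library left out (-0.053 to 0.003). They also reversed for Aldh1l2 with the index (-0.049), the radial glia score (-0.055) and the proliferation score (-0.055), for Phgdh with the radial glia (0.030) and proliferation (0.067) scores, and for Psph with the proliferation score (0.006). The cause was not tested. With the longest transcript as length, Psat1 (27.2 RPKM) stood just above Shmt2 (26.9 RPKM) in Ctrl. The fits with the 2 scores, the counts at an unadjusted p under other settings and the likeness without Cdk7_KO replicate 4 were added after the data were seen.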
